A study of Mus musculus with 8 samples.

Results

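Cohesin encircles DNA, keeps sister chromatids paired and folds chromatin into loops, and its ring genes Smc1a, Smc3, Rad21, Stag1 and Stag2 were described here by transcript isoform. The members were all annotated transcripts of these 5 genes, found by joining transcript identifiers without version to GENCODE M21, and they numbered 36 of the 126126 transcripts quantified in each library (5 of 32780 matched genes). Smc1a had 6 transcripts, Smc3 had 3, Rad21 had 2, Stag1 had 17 and Stag2 had 8. By annotated type, 17 were protein coding, 13 were retained intron, 4 were subject to nonsense-mediated decay and 2 were processed transcripts.

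Total RNA was sequenced from TC1 cells, a mouse embryonic stem cell line, in 2 groups of 4 libraries. The first group was undifferentiated at day 0 and the second was differentiated for 10 days; both were wild-type, with no further treatment named. The question was which forms of each subunit's RNA were present before and after differentiation. All libraries came from 1 cell line, and the labels name neither separate cultures nor a batch or date, so p-values measure no more than the spread among these libraries, which could be technical in part.

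In the ring, Smc1a and Smc3 are the long coiled-coil ATPases that pair at their hinges, Rad21 is the kleisin that closes the ring and is cut at anaphase, and Stag1 or Stag2, never both in one ring, binds Rad21 and contacts CTCF. Embryonic stem cells divide rapidly and need cohesin both for cohesion and for loops between enhancers and promoters. Transcripts with an early stop codon are degraded by nonsense-mediated decay, and transcripts that keep an intron are often held in the nucleus, so an isoform's type bears on whether it can be translated.

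Library totals ranged from 11242568 to 17843651 estimated counts. The mean fragment length implied by the deposited effective lengths was 186 to 232 nucleotides at day 0 and 167 to 180 at day 10, without overlap. All 8 pluripotency markers had counts at day 0, and their summed level went from 3347 to 3700 CPM (counts scaled to a library of 1000000, with TMM factors) at day 0 to 165 to 220 CPM at day 10. The 6 cycling-cell markers summed to 4100 to 4519 CPM at day 0 and 1880 to 1964 CPM at day 10. Cardiomyocyte markers summed to 67.3 to 88.8 and then 894 to 1495 CPM, with Nppa at 0 at day 0, and matrix markers to 117 to 132 and then 4163 to 7295 CPM, so markers of several cell types were present at day 10. In bulk RNA, fewer cells of a type and less RNA per cell cannot be told apart.

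The isoforms of Stag1 and Stag2 that the results turn on hold or skip a cassette exon, exon 31 of Stag1-206 and of Stag2-203. Their annotated lengths differ by more than this exon: 6186 and 5909 nucleotides for Stag1-206 and Stag1-201, and 6171 and 5825 for Stag2-203 and Stag2-201. The exon is shown because the 2 complete coding forms of Stag1, whose order by TPM reversed between the days, differ at it. The exons lie in coding sequence of GENCODE M21 on GRCm38, on the + strand, at chr9:100953486-100953596 for Stag1 and chrX:42266366-42266476 for Stag2. Capitals mark the cassette, and lower case marks the ends of the exons on either side. The junction lines show the same place in the forms that skip it.
Stag1-206 exon 31: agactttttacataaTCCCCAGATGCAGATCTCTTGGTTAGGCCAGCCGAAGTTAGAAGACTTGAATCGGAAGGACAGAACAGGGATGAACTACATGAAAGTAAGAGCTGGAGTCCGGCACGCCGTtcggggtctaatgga
Stag2-203 exon 31: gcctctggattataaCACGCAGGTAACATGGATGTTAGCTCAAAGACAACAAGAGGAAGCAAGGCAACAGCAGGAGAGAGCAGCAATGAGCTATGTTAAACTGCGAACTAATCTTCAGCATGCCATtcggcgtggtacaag
Stag1-201 junction: agactttttacataatcggggtctaatgga
Stag2-201 junction: gcctctggattataatcggcgtggtacaag
Both cassettes were 111 bases, which is 37 codons, so that skipping kept the reading frame. They were identical at 51 of 111 aligned positions (45.9%), counted without gaps.

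For Smc1a, the isoforms that changed their part of the gene are a decay-targeted form, Smc1a-206, and a form that keeps an intron, Smc1a-204. Smc1a-206 joins exon 1 of Smc1a-201 directly to its exon 4, which leaves out 302 bases, not a multiple of 3, and its annotated frame ends inside that exon. Smc1a-204 runs past the end of exon 15 into 361 bases of intron. Both lie on the + strand of chromosome X in GRCm38. Capitals mark the bases after the shared exon 1 in the first 2 lines (chrX:152022746-152022769 and chrX:152026238-152026261) and the first intron bases in the third (chrX:152037698-152037757).
Smc1a-201 exon 1 to 2: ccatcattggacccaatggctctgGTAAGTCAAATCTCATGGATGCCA
Smc1a-206 exon 1 to 4: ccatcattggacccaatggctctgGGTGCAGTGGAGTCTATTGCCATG
Smc1a-204 exon 15 to intron: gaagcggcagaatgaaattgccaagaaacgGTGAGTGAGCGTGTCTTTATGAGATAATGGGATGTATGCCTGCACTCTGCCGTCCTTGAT

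Of the 36 transcripts, 27 passed the filter on low counts. Of these, 7 were higher at day 10 and 7 were lower by edgeR's quasi-likelihood test at an adjusted p of 0.05, while 13 did not pass. Among all 41067 transcripts tested 26.8% were higher and 23.8% were lower (50.6% either way), a share close to that of the ring transcripts (51.9%). Their median log2 change was 0.19, beside 0.07 over all transcripts tested. By type, 3 of 12 tested protein-coding transcripts were higher and 6 were lower. Of 10 tested retained-intron transcripts 3 were higher and 0 lower, and of 4 decay-targeted ones 1 was higher and 1 lower. Shares by type over all transcripts were not computed, so no pattern by type is read from these numbers. Usage, the log2 change of a transcript's counts against its own gene, changed for 4 of the 27 (edgeR diffSpliceDGE), beside 5.97% of all transcripts tested. Stag1-201 and Smc1a-204 took a larger part of their gene at day 10 (3.17% of all transcripts did), and Stag1-206 and Smc1a-206 a smaller one (2.79%). Kallisto shares reads between overlapping transcripts, and the uncertainty of that sharing is not in these p-values.

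Smc1a lies at chrX:152016428-152062694 (+ strand, GRCm38). Its complete coding transcript Smc1a-201 was at 44.2, 48.5, 40.6 and 36.1 TPM (a length-scaled level that sums to 1000000 per library) in day 0 libraries 1 to 4 and at 43.8, 43.2, 41.4 and 50.3 TPM in day 10 libraries 1 to 4. The days overlapped. On estimated counts the same transcript was lower at day 10 (log2 -0.39 ± 0.09 SE, adjusted p = 0.00841, edgeR), whereas on log2(TPM + 0.5) it changed by 0.08 (adjusted p = 0.561, limma). The median of all transcripts tested rose by 0.45 on that TPM scale, relative to which Smc1a-201 stood at -0.37. Its usage on counts did not pass (log2 0.00249, adjusted p = 0.9999), and it held 83.3% ± 1.25 of Smc1a counts at day 0 and 83.5% ± 1.96 at day 10 (SD, n = 4).

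Smc1a-206, the decay-targeted form, was at 13.1, 22.3, 15.8 and 17.5 TPM at day 0 and at 3.54, 3.03, 4.49 and 5.03 TPM at day 10. Every day 10 library was below every day 0 library. It fell by 2.54 on the log2 count scale (SE 0.25, adjusted p = 5.53e-05, edgeR), and its usage fell by 2.15 (adjusted p = 0.000119). Set against the coding form alone, Smc1a-206 made up 28.8% ± 4.37 of the summed TPM of Smc1a-201 and Smc1a-206 at day 0 and 8.23% ± 1.48 at day 10 (SD, n = 4). The 2 forms part at the end of exon 1, as in the junction lines above.

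Smc1a-204, the 617-nucleotide form with intron sequence, was at 18.2, 5.91, 5.76 and 6.32 TPM at day 0 and at 35.6, 38.4, 51.3 and 45.4 TPM at day 10. Library 1 stood above the other day 0 libraries, and all of them lay below day 10. It rose by 1.86 ± 0.41 on the log2 count scale (adjusted p = 0.00513, edgeR) and its usage rose by 2.25 (adjusted p = 0.00198). Its levels rest on 19.8 to 55.2 counts in each day 0 library and 107 to 181 in each day 10 library. Smc1a-205, a further retained-intron form, was at 8.94, 8.39, 8.69 and 6.24 TPM at day 0 and at 10.9, 26.03, 16.5 and 24.96 TPM at day 10. The days did not overlap. Yet its count change (log2 0.90 ± 0.32, adjusted p = 0.0458, edgeR) lost its call when any library other than day 10 library 1 was left out (adjusted p up to 0.111). The call also ended with a replicate block (0.142). Its usage did not pass (adjusted p = 0.292, edgeR diffSpliceDGE), but it passed with limma's diffSplice on voom values (log2 1.28, adjusted p = 0.00303).

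By type, retained-intron transcripts held 29.6% ± 7.21 of Smc1a TPM at day 0 and 61.5% ± 3.50 at day 10, and the decay-targeted form 20.5% ± 4.83 and 3.15% ± 0.505 (SD, n = 4). The protein-coding share was 49.9% ± 2.81 at day 0 and 35.4% ± 3.47 at day 10, a fall that passed the test (adjusted p = 0.0124, limma on the arcsine square root of the share). Of the 4 ring genes with both kinds of transcript, 1 was called, beside 14.3% of all such genes (10.6% lower). The call ended with a replicate block (adjusted p = 0.0894) and with shares of counts in place of TPM (adjusted p = 0.955). Short transcripts weigh more in TPM than in counts, so this share rests on few reads.

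**Figure D1:**
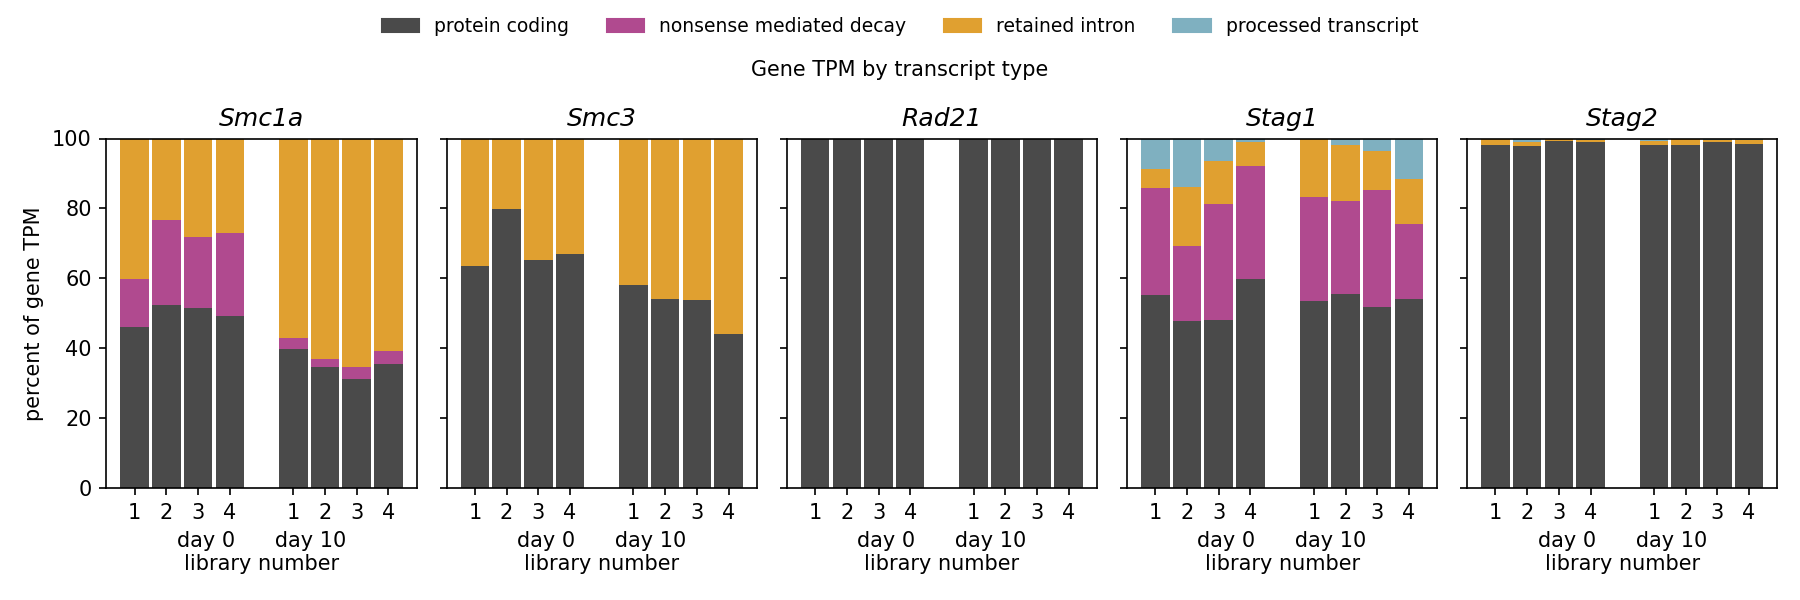
Percent of each gene's TPM held by each annotated transcript type (vertical axis) in each library (horizontal axis, libraries 1 to 4 of day 0 and of day 10). Each stacked bar is 1 library and sums to 100; the retained-intron part of Smc1a was 23.4 to 40.0% at day 0 and 57.0 to 65.2% at day 10.

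Smc3 lies at chr19:53600398-53645833 (+ strand). Its complete coding transcript Smc3-201 was at 146, 183, 151 and 135 TPM at day 0 and at 89.7, 88.8, 94.5 and 102 TPM at day 10. All day 10 libraries were below all day 0 libraries. It fell by 1.18 on the log2 count scale (SE 0.10, adjusted p = 1.96e-05, edgeR), and its usage did not pass (log2 -0.05, adjusted p = 0.998, edgeR diffSpliceDGE). The transcript held 97.2% of Smc3 counts at day 0 and 94.2% at day 10, so this measure could move little. The 471-nucleotide Smc3-202, which keeps 204 bases of the intron before exon 20, was at 79.9, 41.0, 78.1 and 63.3 TPM at day 0 and at 62.0, 70.5, 74.7 and 127 TPM at day 10. The days overlapped, and its counts gave log2 -0.03 ± 0.33 (adjusted p = 0.950). Its share of Smc3 TPM was 17.9 to 34.7% at day 0 and 40.2 to 55.4% at day 10, without overlap, while its usage on counts did not pass (log2 1.11, adjusted p = 0.0902, edgeR diffSpliceDGE). With limma's diffSplice on voom values, which called 8268 of 35947 transcripts, usage of Smc3-202 passed (log2 1.19, adjusted p = 0.00619). So did that of Smc3-201 (log2 -1.12, adjusted p = 0.00705, limma diffSplice). The protein-coding share of Smc3 was 68.9% ± 7.52 and 52.5% ± 5.97 (adjusted p = 0.0642, limma).

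Rad21 lies at chr15:51962240-51991747 (- strand), and both of its transcripts are annotated as protein coding. Rad21-201, the complete form, was at 159, 171, 148 and 144.3 TPM at day 0 and at 120.1, 127, 121.2 and 128 TPM at day 10. The days did not overlap. It fell by 0.79 on the log2 count scale (SE 0.05, adjusted p = 7.20e-06, edgeR) and held 93.1% ± 3.56 of Rad21 TPM at day 0 and 97.5% ± 1.18 at day 10. The incomplete Rad21-202 was at 4.30 to 18.6 TPM at day 0 and at 1.30 to 4.70 TPM at day 10, with overlap. It rests on 26.7 to 89.7 counts in each day 0 library and 5.43 to 23.4 in each day 10 library. Its counts fell by 2.29 on the log2 scale (SE 0.56, adjusted p = 0.00892, edgeR), and its usage did not pass (adjusted p = 0.207, edgeR diffSpliceDGE).

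**Figure D2:**
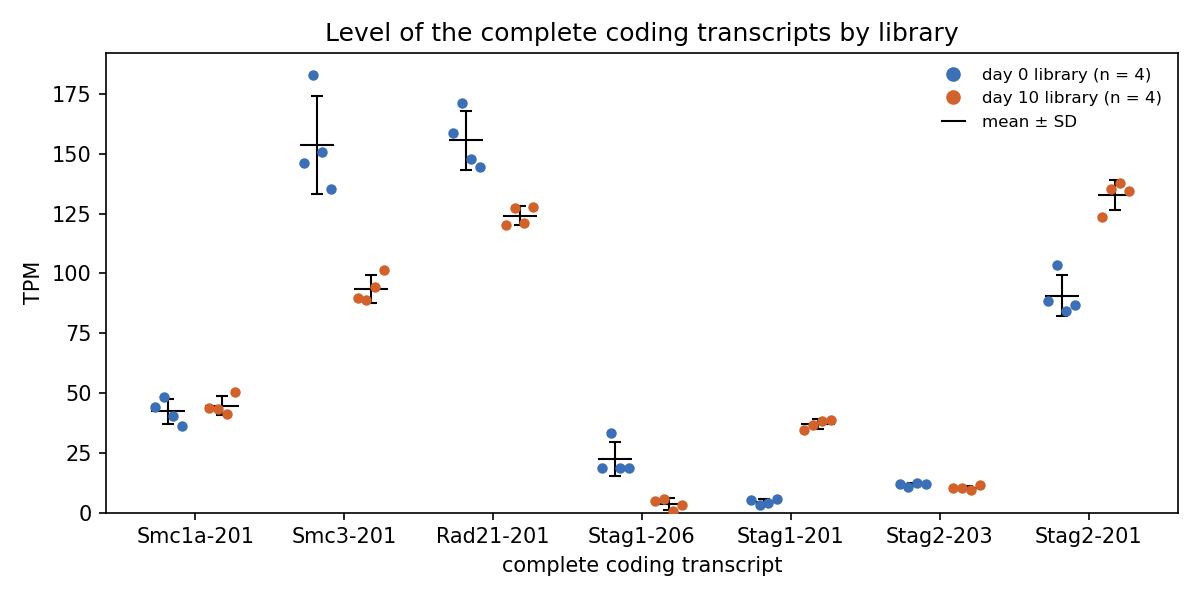
TPM (vertical axis) of complete coding transcripts of the 5 genes (horizontal axis); each point is 1 library, blue for day 0 and orange for day 10, and bars are mean ± SD (n = 4 per day). Smc3-201 and Rad21-201 were lower in all day 10 libraries, Smc1a-201 overlapped, and Stag1-206 and Stag1-201 moved in opposite directions.

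Stag1 lies at chr9:100597798-100959375 (+ strand) and has 2 complete coding transcripts, which changed places. Stag1-206, with the cassette exon, was at 18.8, 33.1, 18.6 and 18.8 TPM at day 0 and at 4.82, 5.78, 0.479 and 3.19 TPM at day 10. Library 2 was highest at day 0, library 3 was lowest at day 10, and the days did not overlap. It fell by 3.12 on the log2 count scale (SE 0.61, adjusted p = 0.00285, edgeR), and its usage fell by 3.41 (adjusted p = 7.52e-09). Stag1-206 held 23.2% ± 6.42 of Stag1 TPM at day 0 and 1.99% ± 1.26 at day 10 (SD, n = 4).

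Stag1-201, without the cassette exon, was at 5.11, 3.23, 3.99 and 5.57 TPM at day 0 and at 34.4, 36.6, 38.3 and 38.8 TPM at day 10. The lowest day 10 library was above every day 0 library. It rose by 2.57 ± 0.18 on the log2 count scale (adjusted p = 9.67e-06, edgeR), and its usage rose by 2.28 (adjusted p = 1.30e-05). Its share of Stag1 TPM was 4.71% ± 1.20 at day 0 and 21.2% ± 2.03 at day 10. These 2 coding forms together made up 28.0% ± 5.44 of Stag1 TPM at day 0 and 23.2% ± 0.771 at day 10, so most Stag1 TPM was assigned to other transcripts on both days.

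Among those others, Stag1-203 is targeted to decay: it holds an extra 73-base exon 13, inside which its annotated frame ends. It was at 24.7, 17.7, 26.3 and 24.8 TPM at day 0 and at 40.8, 35.8, 45.2 and 28.7 TPM at day 10. The days did not overlap in TPM, but neither its counts (log2 0.21 ± 0.19, adjusted p = 0.378, edgeR) nor its usage (log2 -0.08, adjusted p = 0.9999) passed. Its share of Stag1 TPM overlapped, at 24.7% ± 4.93 and 21.7% ± 5.44.

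Stag1-214, which is annotated with an incomplete 5′ end and holds the cassette exon, was at 22.3, 9.04, 17.1 and 25.3 TPM at day 0 and at 48.2, 59.8, 38.7 and 47.7 TPM at day 10. Library 2 was lowest at day 0, and all day 10 libraries were higher. Its count change (log2 0.92 ± 0.30, adjusted p = 0.0341, edgeR) lost its call without day 0 library 1 or 3 or day 10 library 1, 2 or 4 (adjusted p up to 0.0802) and with a replicate block (0.0701), and its usage did not pass (log2 0.63, adjusted p = 0.480). Stag1-215, a processed transcript below the share set for description and named after its values were seen, ranged from 0.877 to 13.99 TPM at day 0 and from 0.00669 to 20.999 TPM at day 10. By type, Stag1 held 52.7% ± 5.83 protein-coding TPM at day 0 and 53.7% ± 1.48 at day 10 (adjusted p = 0.890, limma). Stag1-206 and Stag1-201 are both annotated with that type. So is Stag1-214, whose share of Stag1 TPM was 19.5% ± 7.82 at day 0 and 27.6% ± 3.16 at day 10, with overlap. The level share of the type therefore does not show that Stag1-206 was exchanged for Stag1-201 alone.

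**Figure D3:**
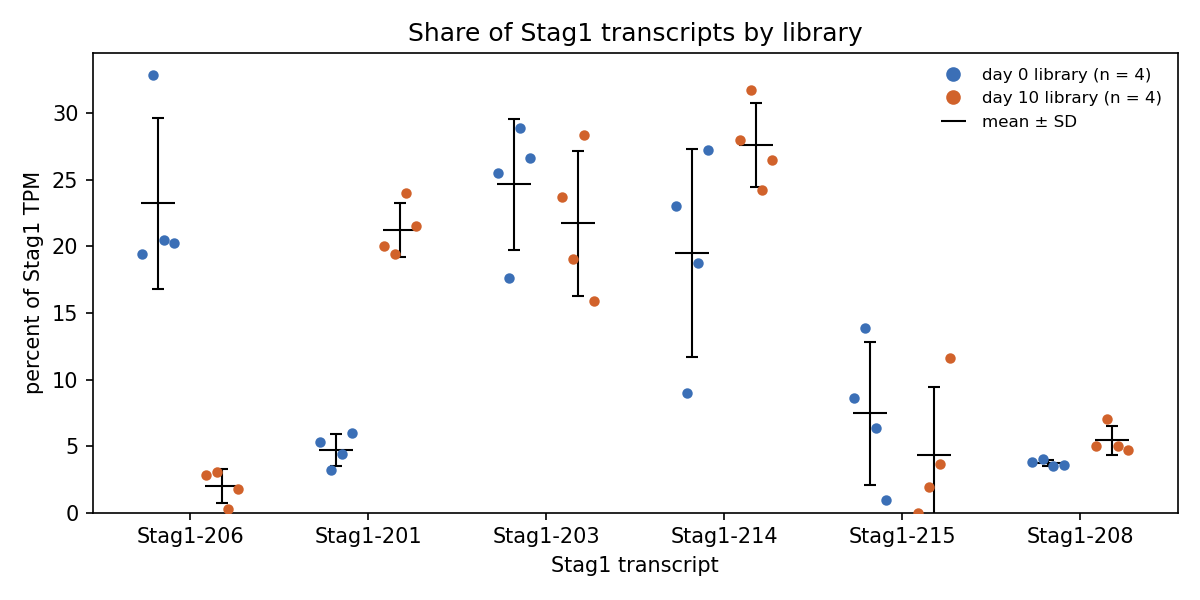
Percent of Stag1 TPM (vertical axis) held by 6 Stag1 transcripts (horizontal axis); each point is 1 library, and bars are mean ± SD (n = 4 per day). Stag1-206 and Stag1-201 separated fully by day in opposite directions, while Stag1-203, Stag1-214 and Stag1-215 overlapped. Stag1-208 also separated, at 3.51 to 4.03% at day 0 and 4.68 to 7.05% at day 10.

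Stag2 lies at chrX:42149317-42277185 (+ strand). Its main coding transcript Stag2-201, which skips the cassette exon, was at 88.3, 104, 84.4 and 86.6 TPM at day 0 and at 124, 135, 138 and 134 TPM at day 10. The days did not overlap in TPM, but the count change was small (log2 0.08 ± 0.07, adjusted p = 0.369, edgeR), and the TPM change of 0.55 was 0.10 relative to the median of all transcripts. Stag2-203, with the cassette exon and named after its values were seen, was at 12.004, 10.9, 12.3 and 12.1 TPM at day 0 and at 10.2, 10.2, 9.27 and 11.6 TPM at day 10. The days overlapped in TPM, its counts fell by 0.67 on the log2 scale (SE 0.11, adjusted p = 0.000935) and its usage did not pass (log2 -0.71, adjusted p = 0.0736).

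Stag2-204 is a 294-nucleotide fragment with an incomplete 3′ end that is typed as protein coding. It was at 86.1, 99.0, 135 and 157 TPM at day 0 and at 270, 315, 261 and 279 TPM at day 10. Each day 10 library was above each day 0 library. These levels rest on 85.0 to 203 counts in each day 0 library and 229 to 343 in each day 10 library, over an effective length of 124 ± 13.9 and 132 ± 5.06 nucleotides. Its counts rose by 0.84 ± 0.23 on the log2 scale (adjusted p = 0.0146, edgeR), and its usage did not pass (log2 0.80, adjusted p = 0.276, edgeR diffSpliceDGE). With limma's diffSplice on voom values its usage passed (log2 0.93, adjusted p = 0.00133). It held 51.1% ± 9.37 of Stag2 TPM at day 0 and 63.9% ± 2.03 at day 10, but 2.48% ± 0.794 and 4.29% ± 0.297 of Stag2 counts. The part of the differing fragment lengths in the TPM of such short transcripts was not tested.

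Inclusion of the cassette exon was compared over the transcripts that hold both neighbouring exons. This measure was chosen after the values were seen, so it is given as a description with no test. In Stag1 the transcripts with the exon were Stag1-203, Stag1-206, Stag1-214 and Stag1-215, and the one without it was Stag1-201. They held 93.5, 95.8, 94.4 and 92.6% of that TPM at day 0 and 73.2, 74.1, 70.2 and 72.2% at day 10. Inclusion was thus 94.1% ± 1.36 at day 0 and 72.4% ± 1.67 at day 10 (SD, n = 4), without overlap. On counts, the same measure was 92.5% ± 2.02 and 62.6% ± 1.67.

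The summed TPM of Stag1 transcripts with the exon was 71.4 ± 3.07 at day 0 and 97.4 ± 6.61 at day 10, against 4.47 ± 1.06 and 37.0 ± 1.99 for Stag1-201. On TPM the median log2 change of all transcripts tested was 0.45. On unscaled counts the transcripts with the exon summed to 2755 ± 505 at day 0 and 2673 ± 428 at day 10, with overlap. Stag1-201 had 222 ± 73.2 and 1598 ± 273 counts, without overlap. In Stag2, Stag2-203 held the exon, and Stag2-201 and Stag2-202 skipped it. Inclusion in Stag2 was 11.96, 9.51, 12.7 and 12.2% at day 0 and 7.51, 7.02, 6.30 and 7.86% at day 10. It was low on both days, and every day 10 library was lower. Inclusion by this measure was thus high in Stag1 and low in Stag2, and lower at day 10 in both. The sets are unlike: that of Stag1 includes decay-targeted, incomplete and processed forms, that of Stag2 only complete coding forms. Of the complete coding forms of Stag1, Stag1-206, with the exon, had the higher mean at day 0 (22.3 against 4.47 TPM). At day 10 Stag1-206 had the lower mean (3.57 against 37.0 TPM).

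**Figure D4:**
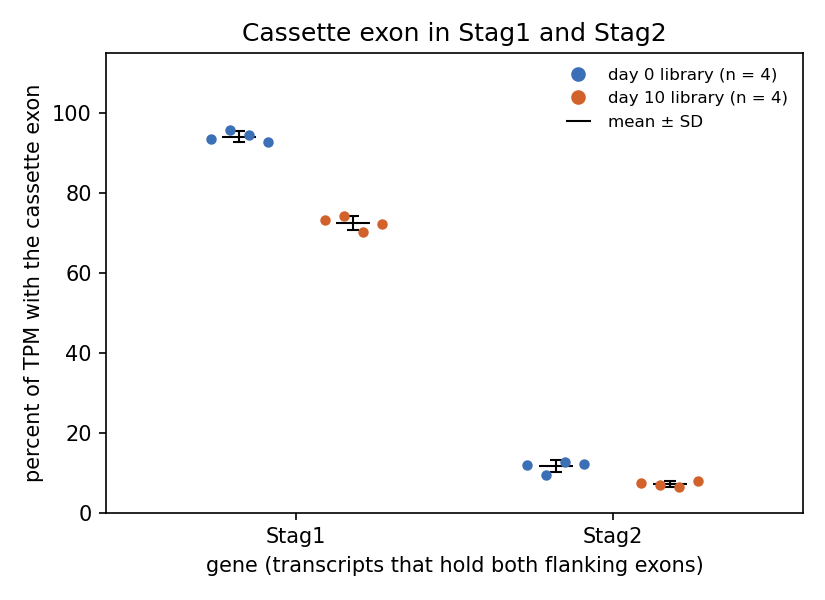
Percent of TPM from transcripts with the 111-base cassette exon (vertical axis, from 0) for Stag1 and Stag2 (horizontal axis); each point is 1 library, and bars are mean ± SD (n = 4 per day). Inclusion was 92.6 to 95.8% and 70.2 to 74.1% in Stag1, and 9.51 to 12.7% and 6.30 to 7.86% in Stag2, at day 0 and day 10.

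The 23 transcripts not described one by one were minor, save where named above. They were 9 protein-coding, 10 retained-intron, 2 decay-targeted and 2 processed transcripts, and the highest mean share of gene TPM in any of them was 7.45%, for Stag1-215. Of these, the decay-targeted Stag1-208 (log2 0.96 ± 0.19, adjusted p = 0.00304, edgeR) and the retained-intron Stag1-217 (log2 1.36 ± 0.35, adjusted p = 0.0105) were higher at day 10, and Rad21-202 and Stag2-203 were lower. The 9 transcripts that did not pass the count filter had mean levels of at most 4.51 TPM on either day, and Stag1-211 and Stag1-213 had 0 counts in all 8 libraries.

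Summed per gene, the scale decided some of the directions. On counts, 4 of the 5 genes were called, beside 82.1% of all genes tested (42.7% higher and 39.4% lower). Smc1a went from 151 ± 13.03 to 118.4 ± 11.5 CPM (log2 -0.35 ± 0.08, adjusted p = 0.00118, edgeR), Smc3, Rad21 and Stag1 changed by log2 -1.09, -0.76 and 0.34, and Stag2 did not pass (0.09, adjusted p = 0.162). On TPM all 5 were called by limma, beside 78.9% of all genes. There the median of all genes rose by 0.45, and relative to it Smc1a stood at 0.13, Smc3 at -0.76, Rad21 at -0.83, Stag1 at 0.42 and Stag2 at 0.49. Smc1a therefore fell on counts and rose on TPM (84.97 ± 10.7 to 127 ± 13.1 TPM, log2 0.58 ± 0.11, adjusted p = 0.000543, limma). That TPM call ended when each library was centred on the median of all genes (log2 0.00594, adjusted p = 0.960) and with protein-coding transcripts only (log2 0.08, adjusted p = 0.490). The Smc3 call on TPM (adjusted p = 0.0309) ended with a replicate block (0.0556) and without any 1 of day 0 libraries 1 to 3 or day 10 libraries 1 to 3 (up to 0.0906).

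A sum over transcripts of more than 1000 nucleotides, added after seeing the data, leaves out the short intron-bearing and fragmentary forms. On it Smc1a was at 57.3, 70.7, 56.4 and 53.7 TPM at day 0 and at 47.3, 46.2, 45.9 and 55.4 TPM at day 10, a fall by 0.28 on the log2 scale (SE 0.10, adjusted p = 0.0159, limma). Day 10 library 4 overlapped with day 0. For Smc1a this sum holds Smc1a-201, at a mean of 42.3 TPM at day 0 and 44.7 TPM at day 10, with overlap. It also holds the decay-targeted Smc1a-206, at a mean of 17.2 and 4.02 TPM. The fall of the sum was thus in Smc1a-206 and not in the coding form. All 5 genes were called on this scale, beside 82.4% of all genes, and against the all-gene median, which rose by 0.48, Smc1a stood at -0.76, Smc3 at -1.18, Rad21 at -0.80, Stag1 at 0.40 and Stag2 at 0.03. The direction of Smc1a on TPM thus changed when its short transcripts were left out, and that of the other 4 genes did not.

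**Figure D5:**
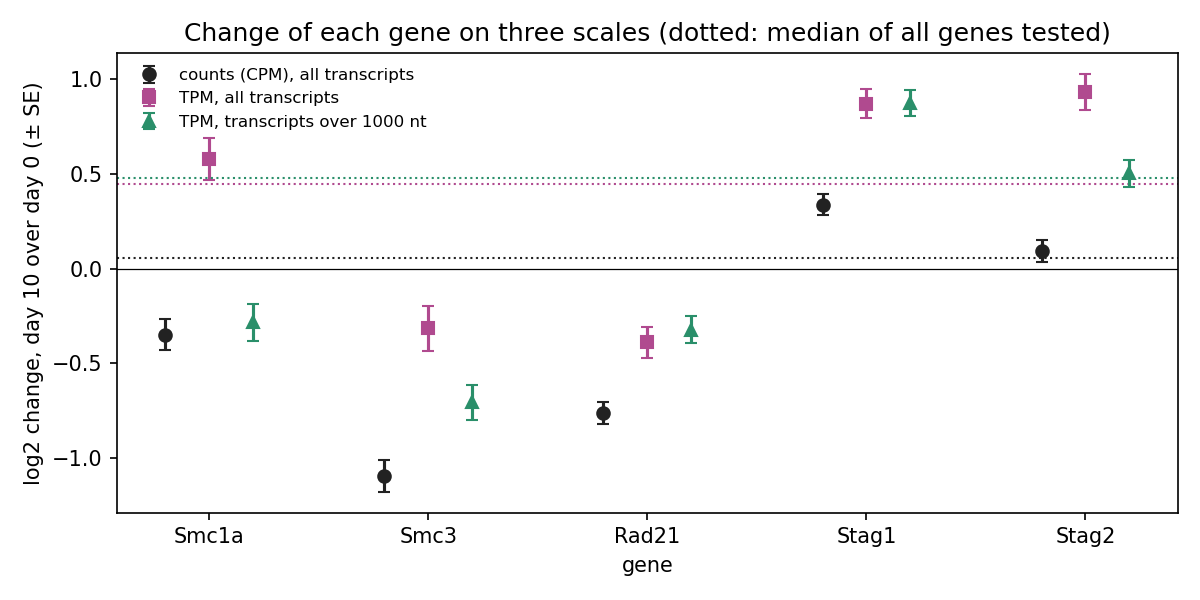
Log2 change of each gene, day 10 over day 0 (vertical axis, ± SE), on counts, on TPM of all transcripts and on TPM of transcripts over 1000 nucleotides (colours and shapes), for the 5 genes (horizontal axis). Dotted lines are the median change of all genes tested on each scale (0.06, 0.45 and 0.48); Smc1a lies on both sides of 0 depending on the scale.

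The mean effective length of a gene's transcripts, weighted by TPM, links the scales. For Smc1a it was 2690 ± 149 nucleotides at day 0 and 1911 ± 145 at day 10 (log2 -0.49 ± 0.06, adjusted p = 0.00569, limma), and for Stag2 it was 2632 ± 361 and 1977 ± 94.3 (log2 -0.40 ± 0.10, adjusted p = 0.0499). These were 2 of 5 genes called, beside 9.66% of all genes (2.97% shorter). The Stag2 call ended when any library other than day 0 library 4 was left out (adjusted p up to 0.122), and a replicate block ended both (0.0695 for Smc1a and 0.153 for Stag2). Rad21, Stag1 and Smc3 did not pass (log2 0.07, -0.10 and -0.34, adjusted p = 0.176, 0.121 and 0.0700).

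The order of levels per length was read on transcripts over 1000 nucleotides. At day 0 Rad21 (156 ± 12.3 TPM) and Smc3 (154 ± 20.6 TPM) led and overlapped, followed by Stag2 (105 ± 8.11 TPM), Stag1 (83.1 ± 3.96 TPM) and Smc1a (59.5 ± 7.64 TPM). At day 10 Stag1 (153 ± 9.18 TPM) and Stag2 (149 ± 5.75 TPM) led and overlapped, followed by Rad21 (124 ± 4.03 TPM), Smc3 (93.6 ± 5.83 TPM) and Smc1a (48.7 ± 4.50 TPM). On this scale, chosen after seeing the data, the STAG genes were below Rad21 and Smc3 at day 0 and above them at day 10. With all transcripts the order differed: Stag2 (231 TPM) and Smc3 (223 TPM) led and overlapped at day 0, and at day 10 Stag2 (439 TPM) led, with Smc3 (181 TPM) and Stag1 (175 TPM) overlapping behind it. With complete coding transcripts only, Stag2 (143.85 TPM) led at day 10, but Stag1 was last on both days, at 26.8 TPM and 40.6 TPM, overlapping with Smc1a at 42.3 and 44.7 TPM. The high place of Stag1 in the first order thus rested on its other transcripts.

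Of 14 genes that load, release, acetylate or cleave cohesin or position it, 3 were higher on counts, 10 were lower and 1 did not pass, with a median log2 change of -0.90 (median of all genes 0.06, 82.1% called). Higher were the loader subunit Mau2 (log2 0.72 ± 0.08), Pds5b (0.40 ± 0.06), which binds the ring with Wapl, and the Smc3 deacetylase Hdac8 (1.16 ± 0.17). Nipbl, the other loader subunit, did not pass (0.04 ± 0.07, adjusted p = 0.593, edgeR). The lower ones included Pds5a (-0.33 ± 0.06), opposite to Pds5b, the release factor Wapl (-0.91 ± 0.06) and the S-phase acetyltransferase Esco2 (-2.31 ± 0.13). All 3 tested meiotic paralogues, Smc1b, Rec8 and Stag3, were lower (median log2 -3.47), and Rad21l did not pass the filter on low counts. The cycling-cell markers were lower on the same days, and their part in these changes and in those of the ring genes was not tested.

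The genes whose count profile over the 8 libraries was most like that of each ring gene were taken from 9467 protein-coding genes by Euclidean distance between centred log2 CPM values. They were Ofd1 (distance 0.139) and Upf2 (0.145) for Smc1a, Rad50 (0.187) for Smc3, and Luzp1 (0.0596) and Usp8 (0.0973) for Rad21. For Stag1 they were Dcaf8 (0.0765) and Pum2 (0.0806), and for Stag2 Ankhd1 (0.0702) and Ufl1 (0.0915).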

How the data were processed

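Each library has 1 table, deposited by the authors, which lists the estimated count, TPM, length and effective length of every transcript, per the file headers. Kallisto (version given only as 1) and DESeq2 are named in the submitters' processing notes; the reference transcripts, genome build and strand are not given there. Estimated counts are unscaled as deposited, and TPM was scaled by the authors for effective length.

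Transcripts were joined to GENCODE M21 (GRCm38) by identifier without version, which matched 117992 of 126126 (93.6%). All 36 ring transcripts had equal length and 0 an equal version, so positions and sequences are those of M21. The 8134 unmatched transcripts, with 1.15 to 1.23% of counts, were not analysed here.

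Rounded estimated counts, per transcript or summed per gene, were tested with edgeR 4.0.16 (filterByExpr, TMM, robust quasi-likelihood; R 4.3.3) over 41067 transcripts and 15097 genes. Usage was tested with diffSpliceDGE, which sets a transcript's log2 change against that of its gene. Log2(TPM + 0.5), protein-coding shares and mean effective lengths were tested with limma 3.58.1 over genes of at least 1 TPM on either day. P-values are two-sided and adjusted by Benjamini-Hochberg over all features, at 0.05. Scripts were tested on simulated counts, drawn independently for each transcript and with less variation between libraries than the transcripts here. That test does not cover the sharing of reads between isoforms. The common biological coefficient of variation was 12.5% for genes and 46.1% for transcripts, which limits what transcript tests can call.

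A transcript was described one by one if it held at least 10% of its gene's TPM on either day, or if its usage changed and it reached 1 TPM; 13 were. Likeness was taken over genes of at least 10 CPM, 2 named per ring gene, of which 1 is not reported here. Alternatives were DESeq2, upper quartile scaling, no filter, other pseudocounts, a replicate block and leaving out each library. Members and lists were chosen with earlier results of these data known.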

Additional observations from a re-analysis of the deposited data

Results flagged for a closer look

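In 5 of 86 groups of 4 libraries, 1 library stood apart from the other 3 by Dixon's criterion, which chance meets in about 5% of groups. At day 0, library 2 had 33.1 TPM of Stag1-206 (others 18.6 to 18.8) and 32.9% of Stag1 TPM in that transcript (others 19.4 to 20.5%). At day 0, library 1 had 18.2 TPM of Smc1a-204 (others 5.76 to 6.32). Day 0 library 4 had 202 TPM of Smc3 (others 229 to 231). Day 10 library 4 had 241 CPM of Rad21 (others 226 to 228).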

How the results depend on the processing

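Of 731 values recomputed under alternatives, 7 changed direction where the value passed its threshold before or after the change, all of them in Smc1a. Values that passed in neither case also changed sign in other genes, as in Smc3-202 on counts (-0.03 to 0.34 on TPM) and the mean effective length of Smc3 (-0.34 to 0.00836 over transcripts of more than 1000 nucleotides). On counts, the gene change of Smc1a went from -0.35 to 0.19 with effective length as offset and to 0.58 on TPM. On TPM it was -0.28 over transcripts of more than 1000 nucleotides, where its mean effective length changed by 0.22. Its protein-coding share changed by 0.00287 on the arcsine scale when taken from counts. Smc1a-201 changed by 0.0805 on TPM, and its usage was -0.148 as an arcsine share of TPM.

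Transcripts called higher went from 7 to 13 on TPM with limma. Among all 41067 transcripts tested the number higher also rose, from 11018 to 16714. Changed usage went from 4 to 10 with limma's diffSplice on voom values and to 2 among protein-coding transcripts only. Over all transcripts, usage was called for 2145 of 35947 in the main test. It was called for 8268 of 35947 with limma's diffSplice and for 920 of 17609 among protein-coding transcripts. The protein-coding share, called in 1 gene, was called in 0 on shares of counts (all 4 genes), and mean effective length, called in 2, was called in 1 with annotated lengths, with no minimum TPM, over transcripts of more than 1000 nucleotides, and in 1 to 2 with each library left out. With each library left out, 5 to 8 transcripts were called higher, 7 lower and 4 to 5 with changed usage, as counts that do not say which transcripts. Cassette inclusion of Stag1 then differed by -22.2 to -20.9 percentage points, and by -29.9 on counts.

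Day 0 and day 10 libraries share numbers only: same-numbered libraries correlated at 0.030 to 0.049, though each correlated best with its own number, a hint from the data. With a replicate block, 0 protein-coding shares and 0 mean effective lengths passed, against 1 and 2 without it. Over all genes the block took called protein-coding shares from 1476 to 510 of 10332. Called mean effective lengths went from 1348 to 550 of 13961. Transcript usage (4), lower transcripts (7), gene counts (4) and the cohesin regulators and paralogues (16) kept their number of calls, higher transcripts went to 5 and gene TPM to 4. The replicate block ended the count calls of Smc1a-205 and Stag1-214.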
